A study of Mus musculus with 9 samples.

Results

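The genes described here are 10 dual-specificity phosphatases of the mouse: Dusp1, Dusp2, Dusp4, Dusp5, Dusp6, Dusp7, Dusp10, Dusp11, Dusp16 and Dusp22. They were taken by symbol from the 25757 entries of the count matrix, and each had a single entry. All 10 were among the 12185 genes that passed the filter on low counts. The cells were CD4+ T cells of the genotype WT, in the study's methods isolated as naive cells from the spleens and the lymph nodes of healthy mice, and activated on plates coated with anti-CD3 and anti-CD28 antibodies. They were cultured with 0, 5 or 10 μM acacetin, a flavone found in plants, and RNA was taken on day 3. There were 3 libraries per concentration, labelled as biological replicates, 9 in all. The methods state that male BALB/c mice were bought for the study. All groups shared the antibodies, and according to the methods the drug was dissolved in DMSO and added at the start of the culture. Whether replicates came from separate animals is not stated in the labels, so the p-values measure the spread between these libraries, which may be technical.

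Dual-specificity phosphatases remove phosphate from both tyrosine and serine or threonine residues. Those known as MAP kinase phosphatases switch off the kinases ERK, JNK and p38, which T cells use downstream of the antigen receptor, and several of their genes are themselves induced by these kinases and so form a feedback loop. Dusp1, Dusp2, Dusp4 and Dusp5 encode nuclear, inducible enzymes, Dusp6 and Dusp7 encode cytosolic enzymes that prefer ERK, and Dusp10 and Dusp16 encode enzymes that prefer JNK and p38. Dusp11 and Dusp22 encode small atypical members outside the MAP kinase phosphatases.

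The library totals ranged from 19664981 to 24410715 counts. CPM of the cell and tissue markers are counts scaled to the library total alone. CPM of all other genes below also use edgeR's TMM factors. The 10 listed markers of CD4 T cells each exceeded 10 CPM at every concentration. Their sum lay between 4216 and 4288 CPM in every library. Markers of other cells were low in most libraries. All 6 listed B cell markers were under 1 CPM at each concentration. A pair of libraries stood apart, with a list of markers that summed to more than 5 CPM and to more than 3 times its highest level in the libraries without acacetin. In 10 μM replicate 1 the summed markers were 110 CPM for lung, 23.1 CPM for erythroid cells and 13.9 CPM for macrophages and monocytes, against at most 32.5, 2.09 and 2.92 CPM in the libraries without acacetin. Most of the macrophage and monocyte sum in that library was a single gene, Lyz2, at 11.1 CPM. Csf1r was at 0.10 CPM and Adgre1 at 0.05 CPM there, and Cd68, at 2.39 CPM, lay between the other libraries at 10 μM. In 5 μM replicate 2 the liver markers summed to 24.5 CPM against at most 2.05 CPM. The main results below are therefore also given without both of these libraries. Smaller shifts remained in the other libraries. The lung list summed to 24.9 to 32.5 CPM at 0 μM, 34.0 to 35.3 CPM at 5 μM and 38.9 to 39.0 CPM in the other 2 libraries at 10 μM, mostly through Ager, which was at 20.9 to 27.1 CPM at 0 μM, 28.4 to 29.0 CPM at 5 μM and 32.3 to 41.6 CPM at 10 μM. The macrophage and monocyte list summed to 0.901 to 2.92 CPM at 0 μM, 2.499 to 4.58 CPM at 5 μM and 3.20 to 3.74 CPM in the other 2 libraries at 10 μM, and its marker Cd68 was at 0.200 to 1.53, 1.39 to 2.85 and 2.30 to 2.79 CPM. The part of these shifts in the results was not tested.

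Acacetin at 10 μM was accompanied by higher levels of the nuclear phosphatase transcripts Dusp1, Dusp2 and Dusp5 and of the JNK and p38 phosphatase transcripts Dusp10 and Dusp16. Dusp1 changed most, 1.88-fold. Dusp6, the transcript of the cytosolic ERK phosphatase, was slightly lower, and Dusp4 was lower at 5 μM than at either other concentration. Between 10 and 0 μM, 6 of the 10 genes rose and 1 fell (edgeR's quasi-likelihood test, Benjamini-Hochberg adjusted p under 0.05). Over all 12185 genes tested, 23.8% rose and 23.6% fell in the same comparison. Past a fold change of 1.5 there were 2 of the 10 genes, both higher, against 4.14% of all genes higher past that fold. The median log2 fold change of the 10 genes was 0.22, and that of all genes was 0.0013. The 10 genes were chosen with earlier results of these data known, and all genes were not matched to their level. These shares and medians are therefore a description only. In a bulk culture, a different share of cells that carry a transcript and a different amount of it per cell cannot be told apart.

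**Figure D1:**
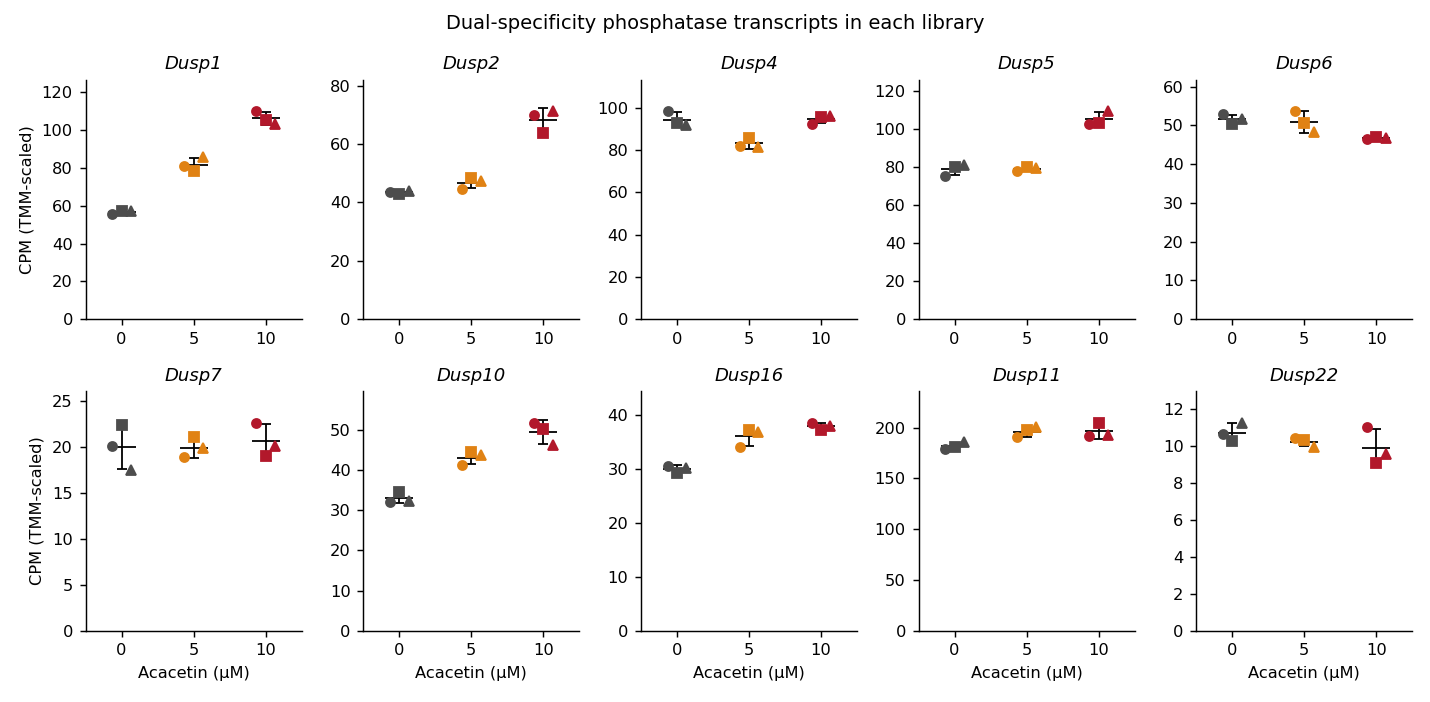
Levels of the 10 transcripts in CPM (vertical axis from 0) at 0, 5 and 10 μM acacetin (horizontal axis). Each point is a library (circle, square and triangle for replicates 1, 2 and 3), and the bars give the mean ± SD of 3 libraries. The points of Dusp1 form 3 separate groups, between 55.4 and 57.3, 78.3 and 85.8, and 103 and 110 CPM, while those of Dusp7 and Dusp22 overlap.

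The bases before the start site of 5 of these genes are shown first, since they differ in the elements through which calcium, cAMP and growth signals are known to induce early genes. The windows come from RefSeq on GRCm38.p6 and hold the 250 bases before the annotated start, 5′ to 3′ on the strand of the gene. Capitals mark the core TGACG of the cAMP response element on either strand and, in Dusp5, the CArG boxes.
Dusp1, chr17:26508473-26508722, minus strand: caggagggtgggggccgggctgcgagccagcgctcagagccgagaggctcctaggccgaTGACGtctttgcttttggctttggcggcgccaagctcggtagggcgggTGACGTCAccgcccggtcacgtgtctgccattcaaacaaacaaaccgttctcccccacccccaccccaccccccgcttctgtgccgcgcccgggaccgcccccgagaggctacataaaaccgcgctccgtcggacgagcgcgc
Dusp2, chr2:127335909-127336158, plus strand: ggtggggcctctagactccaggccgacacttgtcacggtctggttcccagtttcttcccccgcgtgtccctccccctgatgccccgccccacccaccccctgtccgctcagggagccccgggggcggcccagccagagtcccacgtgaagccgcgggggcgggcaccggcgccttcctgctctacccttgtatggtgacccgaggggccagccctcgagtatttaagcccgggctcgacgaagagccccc
Dusp5, chr19:53528895-53529144, plus strand: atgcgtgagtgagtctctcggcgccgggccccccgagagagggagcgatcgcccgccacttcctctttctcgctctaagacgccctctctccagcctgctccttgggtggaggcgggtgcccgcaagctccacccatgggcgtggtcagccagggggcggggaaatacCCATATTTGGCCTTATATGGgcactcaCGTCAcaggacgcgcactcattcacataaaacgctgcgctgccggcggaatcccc
Dusp10, chr1:184034131-184034380, plus strand: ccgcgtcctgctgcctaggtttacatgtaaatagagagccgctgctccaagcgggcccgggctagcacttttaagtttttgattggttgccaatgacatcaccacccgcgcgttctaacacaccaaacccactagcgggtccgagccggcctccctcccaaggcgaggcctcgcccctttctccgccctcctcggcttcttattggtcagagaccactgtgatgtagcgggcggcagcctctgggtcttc
Dusp6, chr10:99262981-99263230, plus strand: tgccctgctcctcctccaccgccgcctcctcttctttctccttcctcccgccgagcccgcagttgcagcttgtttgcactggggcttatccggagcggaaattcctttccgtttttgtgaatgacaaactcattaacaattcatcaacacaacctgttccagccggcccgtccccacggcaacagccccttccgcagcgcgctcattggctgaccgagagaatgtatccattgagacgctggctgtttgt

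The table held a window for 9 of the 10 genes, Dusp4 being the exception, and the search covered the whole window of 300 bases, to position 50 after the start, on both strands. Dusp1 held the full palindrome TGACGTCA at position -143 and a further TGACG at -191. The full element was found in 1.79% of 32851 windows. Its core TGACG, which the full element contains, was in 5 of the 9 windows, those of Dusp1, Dusp2, Dusp5, Dusp11 and Dusp16, against 20.8% of all windows. The match in Dusp2 lies after the start site, at position 6, so its stretch above has no capitals. Those of Dusp11 and Dusp16 lie at -33 and -70. The stretches of Dusp7, Dusp11, Dusp16 and Dusp22 were searched but are not printed. Dusp5 held 2 adjoining CArG boxes, the element bound by serum response factor, at positions -82 and -72, and 1.63% of all windows held any. The letters GGGCGG of the SP1 site were in 7 of the 9 windows and in 35.7% of all. The AP-1 letters TGANTCA were in 0 of the 9 and in 7.81% of all, and the NF-kB site was in that of Dusp22 alone among the 9 and in 8.46% of all. Dusp6 held none of the letters searched. These are matches of letters and were not tested as binding sites.

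Dusp1 encodes MKP-1, a nuclear phosphatase of p38, JNK and ERK. Its level was 55.4, 57.3 and 57.2 CPM in the 3 libraries at 0 μM, 81.1, 78.3 and 85.8 CPM at 5 μM, and 110.1, 105.2 and 103.4 CPM at 10 μM. The concentrations did not overlap, and each step of concentration was higher than the last. Relative to 0 μM, its log2 fold change was 0.53 ± 0.04 with 5 μM (± SE, edgeR adjusted p = 2.7e-08) and 0.91 ± 0.04 with 10 μM (adjusted p = 3.8e-12). The step from 5 to 10 μM added 0.38 ± 0.04 (adjusted p = 6.7e-06). Dusp1 at 5 μM lay near the midpoint of its log2 levels at 0 and 10 μM, with a difference of 0.07 (95% interval 0.000027 to 0.15, adjusted p = 0.27). Without the pair of libraries that stood apart, the log2 fold change of Dusp1 at 10 against 0 μM was 0.88 (edgeR adjusted p = 4.3e-11).

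Dusp2 encodes PAC-1, a nuclear phosphatase found mainly in blood and immune cells. Dusp2 stood at 43.7, 42.8 and 43.9 CPM at 0 μM, 44.6, 48.4 and 47.5 CPM at 5 μM, and 70.0, 63.6 and 71.4 CPM at 10 μM. The 3 libraries at 10 μM lay above the other 6. Relative to 0 μM, the log2 difference was 0.11 ± 0.05 with 5 μM (± SE, edgeR adjusted p = 0.12) and 0.65 ± 0.05 with 10 μM (adjusted p = 4.3e-09). Between 10 and 5 μM Dusp2 rose by 0.55 (SE 0.05, adjusted p = 1.8e-06). Its level at 5 μM was below the midpoint of the outer concentrations by a log2 difference of -0.22 (SE 0.04, adjusted p = 0.0087), which lost its call without 5 μM replicate 1 (-0.18, adjusted p = 0.068). Without both libraries that stood apart, the rise of Dusp2 at 10 against 0 μM was 0.64 (edgeR adjusted p = 5e-08).

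Dusp5 encodes a nuclear phosphatase specific to ERK. It was at 75.2, 79.9 and 80.8 CPM at 0 μM and at 77.8, 79.9 and 79.5 CPM at 5 μM, which overlapped. At 10 μM it reached 102.8, 103.0 and 109.4 CPM, above all other libraries. Its log2 difference from 0 μM was 0.01 with 5 μM (95% interval -0.08 to 0.09, edgeR adjusted p = 0.91), and with 10 μM it was 0.42 ± 0.04 (± SE, adjusted p = 5.6e-08). Like Dusp2, Dusp5 at 5 μM was below the midpoint of the outer concentrations, by -0.20 on the log2 scale (SE 0.03, adjusted p = 0.0026). In the annotation at hand an antisense gene, AC137853.2, overlaps 22.1% of the exon length of Dusp5, and the strand setting of the counting is not given in the sources used here, so reads of both cannot be told apart. Without both libraries that stood apart, Dusp5 at 10 against 0 μM was at 0.43 (edgeR adjusted p = 4.7e-07).

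Dusp4 encodes MKP-2, a nuclear relative of MKP-1. Dusp4 was at 98.5, 92.7 and 92.0 CPM at 0 μM, 81.8, 85.9 and 81.7 CPM at 5 μM, and 92.3, 95.5 and 96.1 CPM at 10 μM. The libraries at 5 μM were the lowest, and those at 0 and 10 μM overlapped. Dusp4 fell by 0.18 on the log2 scale between 5 and 0 μM (SE 0.04, edgeR adjusted p = 0.0012) and rose by 0.19 between 10 and 5 μM (SE 0.04, adjusted p = 0.0041). The difference between 10 and 0 μM was 0.00 with a 95% interval of -0.07 to 0.08 (adjusted p = 0.93). Its departure from the midpoint at 5 μM was -0.18 (SE 0.03, adjusted p = 0.0042), and without 5 μM replicate 3 it was -0.17 with an adjusted p of 0.05015, just past the threshold. Without both libraries that stood apart, Dusp4 was at -0.21 at 5 against 0 μM (edgeR adjusted p = 0.0016).

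Within single libraries, where no scaling enters, the counts of these nuclear phosphatases shifted against each other. The ratio of Dusp1 to Dusp4 counts was 0.60 ± 0.03 (SD, n = 3) without acacetin, 0.98 ± 0.07 with 5 μM and 1.12 ± 0.06 with 10 μM. The ratio of Dusp2 to Dusp4 was 0.461 ± 0.017, 0.563 ± 0.018 and 0.722 ± 0.049 in the same order, and the ranges of the 3 concentrations did not overlap. For Dusp5 over Dusp4 the ratio was 0.83 ± 0.06, 0.95 ± 0.02 and 1.11 ± 0.03. These ratios were not tested. Counts also scale with transcript length, so a ratio of 1 does not stand for equal numbers of molecules.

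Dusp6 encodes MKP-3, a cytosolic phosphatase of ERK and a common readout of ERK activity. It was at 52.8, 50.4 and 51.5 CPM at 0 μM, 53.7, 50.6 and 48.3 CPM at 5 μM, and 46.4, 47.1 and 46.8 CPM at 10 μM. All 3 libraries at 10 μM were below the other 6. Dusp6 fell by 0.14 on the log2 scale at 10 against 0 μM (SE 0.05, edgeR adjusted p = 0.019), and the differences at 5 against 0 μM (-0.02, adjusted p = 0.79) and at 10 against 5 μM (-0.12, adjusted p = 0.12) did not pass the test. The fall lost its call without both libraries that stood apart (-0.13, adjusted p = 0.052), without 0 μM replicate 1 (-0.12, adjusted p = 0.072), in counts thinned to the smallest library (-0.12, adjusted p = 0.062) and in DESeq2 on 2 groups (-0.14, adjusted p = 0.053). The ratio of Dusp1 to Dusp6 counts within a library was 1.10 ± 0.05 (SD, n = 3) without acacetin, 1.61 ± 0.14 with 5 μM and 2.27 ± 0.09 with 10 μM.

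Dusp7, which encodes MKP-X, another cytosolic ERK phosphatase, ranged from 17.5 to 22.4 CPM at 0 μM, from 18.8 to 21.02 CPM at 5 μM and from 19.0 to 22.6 CPM at 10 μM. The concentrations overlapped, and no comparison passed the test. At 10 against 0 μM its log2 fold change was 0.05 with a 95% interval of -0.13 to 0.23 (edgeR adjusted p = 0.69). Both a small fall and a small rise of Dusp7 lie within that interval.

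Dusp10 encodes MKP-5, a phosphatase of JNK and p38. Dusp10 stood at 32.1, 34.4 and 32.4 CPM at 0 μM, 41.2, 44.5 and 43.7 CPM at 5 μM, and 51.8, 50.3 and 46.3 CPM at 10 μM. The 3 concentrations did not overlap. Relative to 0 μM, Dusp10 rose by 0.39 ± 0.05 on the log2 scale with 5 μM (± SE, edgeR adjusted p = 2.5e-05) and by 0.58 ± 0.05 with 10 μM (adjusted p = 5.6e-08). The latter is a rise of 49.9%, just short of the fold threshold of 1.5, and across the alternatives it lay between 0.55 and 0.63, on either side of that threshold. Between 10 and 5 μM Dusp10 rose by 0.20 (SE 0.05, adjusted p = 0.023), but without both libraries that stood apart this was 0.18 (adjusted p = 0.098), and it also lost its call without 5 μM replicate 1, 5 μM replicate 3 or 10 μM replicate 1 (adjusted p from 0.060 to 0.12) and in DESeq2 on 2 groups (adjusted p = 0.053). At 10 against 0 μM without both libraries Dusp10 was at 0.55 (edgeR adjusted p = 6.8e-07).

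Dusp16 encodes MKP-7, which acts mainly on JNK. It was at 30.6, 29.2 and 30.1 CPM at 0 μM, 34.0, 37.2 and 36.8 CPM at 5 μM, and 38.5, 37.2 and 37.9 CPM at 10 μM. Both concentrations of acacetin lay above 0 μM. The rise of Dusp16 over 0 μM was 0.27 ± 0.05 on the log2 scale with 5 μM (± SE, edgeR adjusted p = 0.00059) and 0.34 ± 0.05 with 10 μM (adjusted p = 2.6e-05). Between 10 and 5 μM Dusp16 differed by 0.07 with a 95% interval of -0.03 to 0.18 (adjusted p = 0.41), although its libraries did not overlap there, the nearest pair being equal at the digits given. Without both libraries that stood apart, Dusp16 at 10 against 0 μM was at 0.33 (edgeR adjusted p = 0.00027).

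Dusp11 encodes a phosphatase that acts on the 5′ end of RNA rather than on MAP kinases. Its level was 179.0, 180.5 and 185.5 CPM at 0 μM, 190.3, 197.7 and 200.3 CPM at 5 μM, and 191.6, 204.9 and 192.4 CPM at 10 μM. Dusp11 was higher with acacetin in all 6 libraries, by a small amount. The log2 fold change over 0 μM was 0.11 ± 0.03 with 5 μM (± SE, edgeR adjusted p = 0.016), and with 10 μM it was also 0.11 ± 0.03 (adjusted p = 0.010). The change of Dusp11 at 5 μM lost its call when 0 μM replicate 1 or 2 or 5 μM replicate 2 or 3 was left out (adjusted p from 0.056 to 0.069). Without both libraries that stood apart it kept its call, with 0.10 at 5 μM (adjusted p = 0.046) and 0.13 at 10 μM (adjusted p = 0.0093).

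Dusp22 encodes JKAP, an atypical phosphatase that is known to dephosphorylate the T cell kinase Lck. It lay between 9.08 and 11.2 CPM over all 9 libraries, and the concentrations overlapped. The log2 difference was -0.07 at 5 μM (95% interval -0.26 to 0.12, edgeR adjusted p = 0.60) and -0.12 at 10 μM (95% interval -0.31 to 0.07, adjusted p = 0.30). Both a small fall and a small rise of Dusp22 lie within these intervals. The deposited values of Dusp5 and Dusp7 were not whole numbers in any of the 9 libraries, nor those of Dusp22 in 8 and of Dusp11 in 7, so some of their reads may have been shared out among entries. Dusp1, Dusp2, Dusp4, Dusp6, Dusp10 and Dusp16 had whole values in every library.

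**Figure D2:**
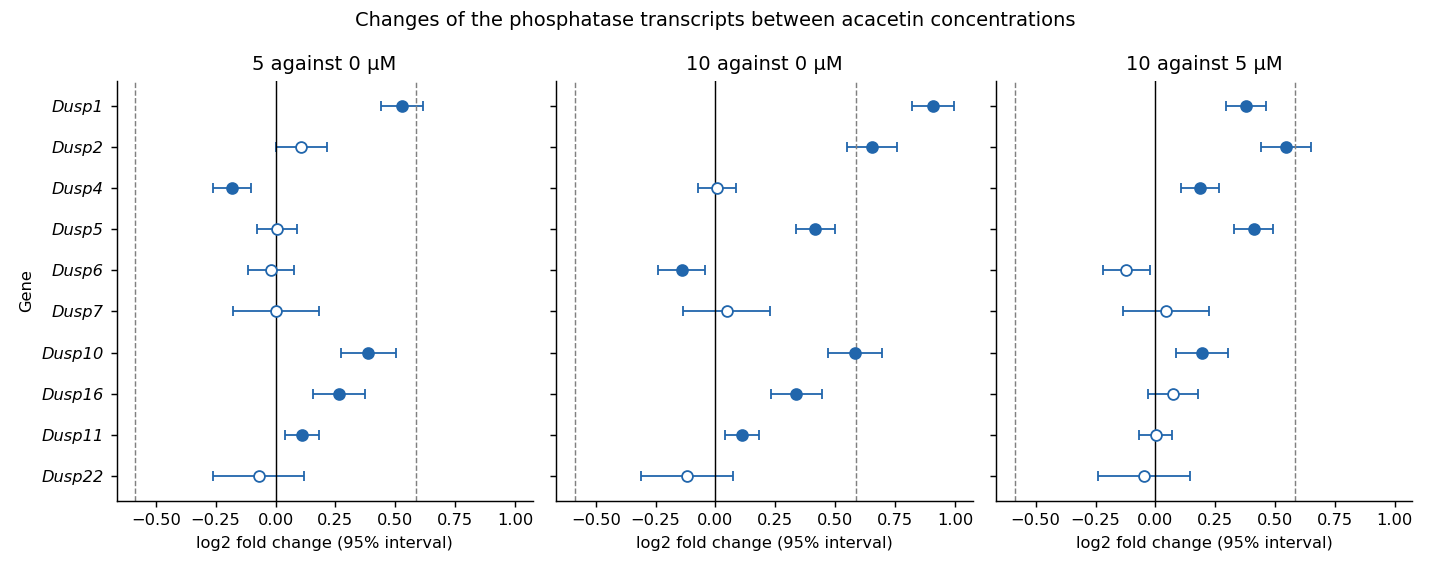
Log2 fold changes (horizontal axis) with their 95% intervals for the 10 genes (vertical axis) in 3 comparisons, from edgeR's fit of all 9 libraries. Filled points passed an adjusted p of 0.05, and dashed lines mark a fold change of 1.5. At 10 against 0 μM only Dusp1 (0.91) and Dusp2 (0.65) of the 10 lie beyond the dashed line, with Dusp10 (0.58) beside it.

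The 3 comparisons gave different sets of called genes among the 10, and Dusp7 and Dusp22 were called in none of them. At 5 against 0 μM, 4 of them rose (Dusp1, Dusp10, Dusp11 and Dusp16) and 1 fell (Dusp4), while 16.3% of all genes rose and 16.8% fell. Past a fold change of 1.5 there were 0 of the 10, against 1.62% of all genes higher past that fold. Between 10 and 5 μM, 5 of the 10 rose (Dusp1, Dusp2, Dusp4, Dusp5 and Dusp10) and 0 fell at an adjusted p under 0.05, against 4.92% and 4.09% of all genes. At an unadjusted p under 0.05 edgeR gave 1 as lower, Dusp6, and DESeq2 called 0 at its adjusted p. The median log2 fold change between 10 and 5 μM was 0.13 for the 10 genes and -0.000058 for all genes. Dusp2, Dusp4 and Dusp5 were below the midpoint of the outer concentrations at 5 μM, 3 of the 10, against 1.56% of all genes, and 0 of the 10 were above it, against 2.27%. At an unadjusted p under 0.05 edgeR gave 2 above it, Dusp1 and Dusp16, and DESeq2 called 0 at its adjusted p. The libraries did not overlap for 5 genes higher and 1 lower at 5 against 0 μM, against 23.0% and 23.4% of all genes, for 6 higher and 1 lower at 10 against 0 μM, against 27.1% in each direction, and for 6 higher and 1 lower at 10 against 5 μM, against 13.3% and 12.6%. These comparisons share libraries, so their results for a gene are not independent.

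Scaled to exon length, the order of the transcripts changed with acacetin. The lengths are the joined exons of each gene in GENCODE M21, and since the transcripts in use were not measured the order depends on them. At 0 μM the level of Dusp4 was 34.5 ± 1.3 CPM per kb (SD, n = 3), followed by Dusp5 at 31.8 ± 1.2, Dusp11 at 28.2 ± 0.53, Dusp2 at 26.9 ± 0.35 and Dusp1 at 23.9 ± 0.45, with no overlap between neighbours. At 10 μM Dusp1 came first with 44.8 ± 1.5 CPM per kb, but its libraries overlapped those of Dusp5 (42.5 ± 1.5) and Dusp2 (42.3 ± 2.5), so these 3 were not in a clear order. Dusp4 (34.5 ± 0.74) and Dusp11 (30.5 ± 1.2) followed. Dusp10 was below Dusp6 at 0 μM, with 11.8 ± 0.45 against 18.4 ± 0.44 CPM per kb, and at 10 μM they overlapped, with 17.7 ± 1.0 against 16.7 ± 0.13. Dusp7, Dusp16 and Dusp22 held the lowest places at all 3 concentrations, and Dusp22 was at 2.09 ± 0.10 CPM per kb at 0 μM.

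**Figure D3:**
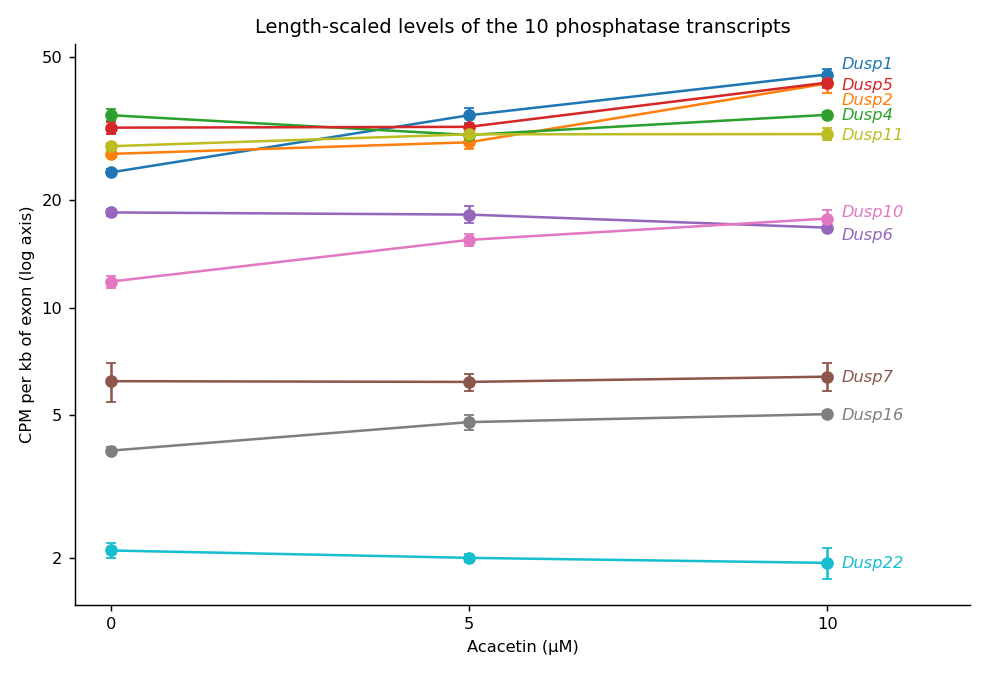
Mean levels of the 10 transcripts in CPM per kb of exon (vertical log axis) at 0, 5 and 10 μM acacetin (horizontal axis), with bars for the SD of 3 libraries. The line of Dusp1 runs from the fifth place at 0 μM (23.9) to the first at 10 μM (44.8), and that of Dusp22 stays lowest.

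Other genes of the same pathway were counted from lists written for this comparison. Of 20 further genes for dual-specificity or related phosphatases, 13 were tested, and at 10 against 0 μM 2 rose and 2 fell, with a median log2 fold change of -0.13. Dusp8, which encodes a phosphatase of JNK and p38, was at 3.07, 3.83 and 3.25 CPM at 0 μM, 5.72, 6.71 and 5.50 CPM at 5 μM, and 9.53, 10.3 and 10.2 CPM at 10 μM. Dusp8 rose over 0 μM by 0.83 ± 0.13 on the log2 scale with 5 μM (± SE, edgeR adjusted p = 9e-05) and by 1.57 ± 0.12 with 10 μM (adjusted p = 7.3e-09), a larger value than that of Dusp1. The difference between these genes was not tested. Dusp18, which encodes a phosphatase found at mitochondria, was low, at 2.51, 2.04 and 1.56 CPM at 0 μM and 0.853, 0.745 and 1.08 CPM at 10 μM, and it fell by 1.17 on the log2 scale (SE 0.31, adjusted p = 0.0044). The other genes called were Dusp3, which was lower (-0.55), and Ptpmt1, which was higher (0.17) but lost its call without 10 μM replicate 3 (edgeR adjusted p = 0.054). Dusp15, Dusp21, Dusp26 and Styxl1 did not pass the filter on low counts.

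Of 27 genes for MAP kinases and their upstream kinases 6 rose, 7 fell and 14 were not called at 10 against 0 μM, with a median of 0.07. These shares are close to the 23.8% and 23.6% of all genes that rose and fell. Map3k8, which encodes the ERK-activating kinase Tpl2, rose by a log2 fold change of 0.63 (edgeR adjusted p = 2.7e-10) and Map2k3, whose product activates p38, was at -0.32 (adjusted p = 1.9e-07). Among 23 early genes known to be induced through MAP kinases 9 rose and 10 fell, with a median of -0.04. Jun (0.99), Btg2 (0.84), Ier5 (0.69) and Ier3 (0.65) rose, while Etv4 was at -0.84 (edgeR adjusted p = 2.4e-08), Etv5 at -0.42, Fosb at -0.37 and Nr4a1 at -0.34 (adjusted p = 1.1e-08), and these also passed the test. Myc was at 0.55, Fos at 0.51 and Egr1 at 0.29, while Egr2 was at -0.23, Egr3 at -0.28 and Junb at -0.28. All of these passed the test.

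Of 16 tested genes for other brakes on ERK or for phosphatases outside the family, 4 rose and 5 fell at 10 against 0 μM, with a median of -0.06. Spry1, which encodes a feedback inhibitor of the Ras and ERK pathway, rose by a log2 fold change of 0.78 (edgeR adjusted p = 1.4e-11). Ptpn5, which encodes a tyrosine phosphatase of ERK and p38, was at -2.13 (adjusted p = 6e-12), and Ptpn22, Ptpn6 and Ptpn7 also fell, at -0.34, -0.23 and -0.19. Of 9 genes for proteins that bind AU-rich or stem-loop elements in messages, such as that of Dusp1, 4 rose and 2 fell, with a median of 0.10. Zfp36, which encodes the decay factor tristetraprolin, rose by 0.80 (adjusted p = 2.2e-11), Zfp36l1 by 0.72 (adjusted p = 4e-12) and Zc3h12a by 0.57 (adjusted p = 7.2e-08). Those that fell were Hnrnpd (-0.12, edgeR adjusted p = 0.012) and Elavl1 (-0.08, adjusted p = 0.04998). Elavl1 lost its call in most alternatives. Among them were the replicate block (edgeR adjusted p = 0.065) and DESeq2 on all libraries (adjusted p = 0.10). Without both libraries that stood apart its edgeR adjusted p was 0.21. Hnrnpd lost its call without both libraries that stood apart (edgeR adjusted p = 0.057). For each of these lists the 23.8% and 23.6% of all genes that rose and fell are the background.

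**Figure D4:**
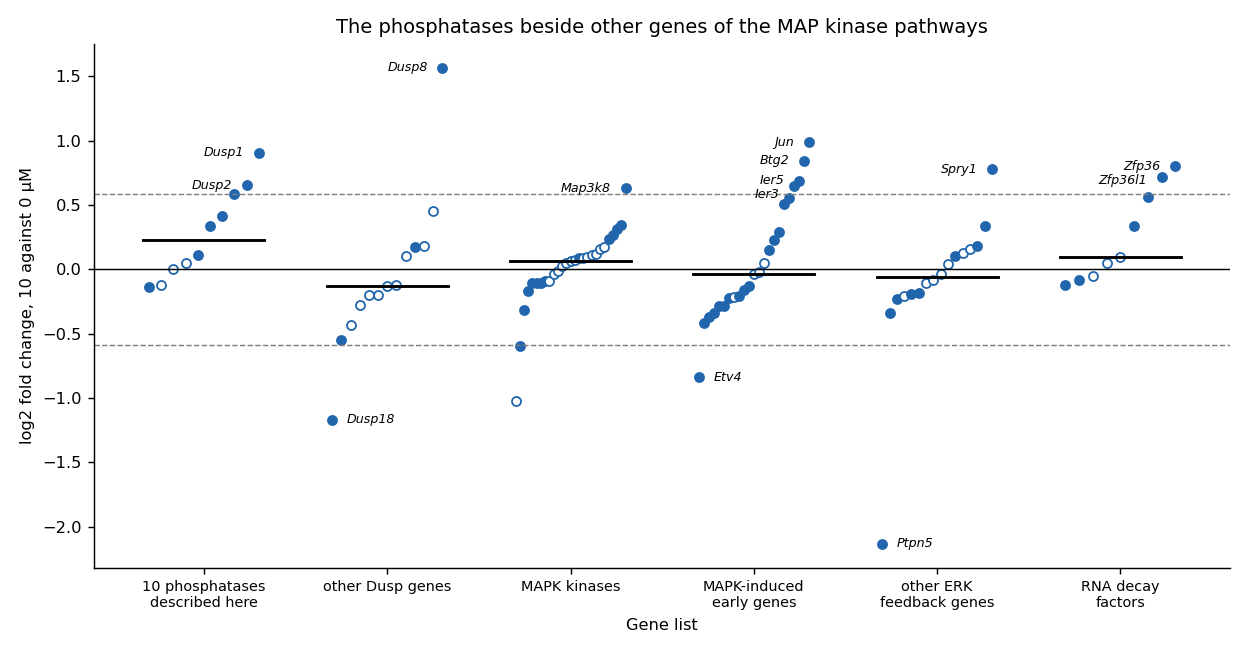
Log2 fold changes at 10 against 0 μM (vertical axis) of the tested genes in 6 lists (horizontal axis), each point a gene, filled where the adjusted p was under 0.05, with the list's median as a bar and dashed lines at a fold change of 1.5. Names are given to the genes past that fold that the text covers. The 10 phosphatases have a median of 0.22, and the largest changes shown are those of Dusp8 (1.57) and Ptpn5 (-2.13).

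Genes with a pattern like that of the members past the fold threshold were sought among 8921 genes whose log2 CPM averaged 3 or more. Nearest to Dusp1 over the 9 libraries were Slc41a1 (Pearson r = 0.995), which encodes a magnesium transporter, Plk2 (r = 0.995), which encodes a polo-like kinase, and Il2 (r = 0.995), the gene of the T cell growth factor interleukin 2. The mean level of Il2 was 64.6 CPM without acacetin, 92.0 CPM with 5 μM and 117 CPM with 10 μM. Nearest to Dusp2 were B4galnt1 (r = 0.986), which encodes a ganglioside synthase, Itpripl1 (r = 0.983) and Zc3h10 (r = 0.983). The 9 libraries fall into the 3 concentrations, which all of these genes share, so the coefficients describe the pattern over concentration.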

How the data were processed

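The 9 libraries were made from RNA with a TruSeq kit and sequenced. The authors made an estimated count per gene from the reads and deposited it, not scaled to a common total. Since 24.1% of the values are not whole, they were rounded. The submitters' processing notes name GRCm39. The study's methods name HISAT2 and StringTie for reads and DESeq2 for pairs of groups. For the counting tool, its annotation and its use of strand the sources here state nothing. All 9 value columns were matched to samples by title. Of 25757 entries, 964 share 70 symbols, and the one with most counts carries the symbol.

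The rounded values were tested with edgeR 4.0.16 under R 4.3.3 (filterByExpr, TMM, and the quasi-likelihood test on 1 model of the 9 libraries), and p-values were adjusted by Benjamini-Hochberg over 12185 genes. Alternatives used DESeq2 1.42.0, other scalings and filters, thinned counts, a replicate block, summed entries of a symbol and fits without single libraries. Replicates differed by more than counting noise. The fitted common coefficient of variation was 3.65%, and 11323 genes reached 10 counts in each of the 9 libraries. Steps were tested on simulated data. Exon lengths are from GENCODE M21, whose build is not that of the files, so it was joined by symbol.

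The 10 genes and the gene lists were chosen with earlier results of these data known. All 10 are described in every comparison. Of the other phosphatases, genes past the fold threshold could be named. Of the remaining lists, the 5 smallest adjusted p at 10 against 0 μM and called genes against the majority could be named. Dusp3, Ptpmt1, Etv4, Etv5, Fosb, Egr2, Egr3, Junb, Ager, Cd68, Lyz2, Csf1r, Adgre1 and the phosphatases below the filter were named after their values were seen. Like genes are the 3 with the highest Pearson r to a member past the fold threshold, on log2 CPM with a prior count of 2.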

Additional observations from a re-analysis of the deposited data

Results flagged for a closer look

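In 2 libraries a list of markers of other cells or tissues was above 5 CPM and at more than 3 times its highest level in the libraries without acacetin. Smaller excesses in the lung and macrophage lists were present in other acacetin libraries too. In 10 μM replicate 1 the lung markers summed to 110 CPM, the erythroid markers to 23.1 CPM and the macrophage and monocyte markers to 13.9 CPM. Lyz2 alone held 11.1 CPM of the last sum. In 5 μM replicate 2 the liver markers summed to 24.5 CPM. Dusp1, Dusp2, Dusp5, Dusp10, Dusp11 and Dusp16 kept their calls at 10 against 0 μM without both libraries, and Dusp6 did not.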

How the results depend on the processing

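Each of the 40 comparisons of a member was refitted under up to 20 alternatives, 780 values in all. Of these, 765 stayed on the same side of the threshold, 15 calls were lost and 0 gained, and 0 called values changed sign. The lost calls were those of Dusp6 (10 against 0 μM), Dusp10 (10 against 5 μM), Dusp11 (5 against 0 μM), and Dusp2 and Dusp4 (5 μM against the midpoint). The sign changed in 33 values called in neither fit. The 1 member lower at 10 against 0 μM, Dusp6, became 0 in DESeq2 on 2 groups alone, in thinned counts and without both libraries of lung or liver transcripts, and the count ranged from 0 to 1 with single replicates left out. For the other phosphatases at 5 against 0 μM, 3 were called, and 1 to 4 with single replicates left out. For 38 listed genes outside the 10, 760 values were refitted at 10 against 0 μM, and 44 lost their call. The cause of these shifts was not tested.

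Correlations of same-numbered deviations were small, from -0.0303 to 0.0871. Still, 8 of 9 libraries correlated best with a library of their own number, although most candidates carried another number. Whether the numbers pair the libraries was not tested. With the replicate number as a block, no call of a member changed, and the log2 fold change of Dusp1 at 10 against 0 μM was 0.91. The widest intervals were those of Dusp7 and Dusp22, the 2 members with the fewest counts. The cause was not tested.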
